A study of Mus musculus with 12 samples.

Results

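The Spi1 gene encodes PU.1, an ETS family transcription factor, and in UREd/d mice its upstream regulatory element (URE), a distal enhancer, is deleted. The data described here are the open chromatin regions at 10 other ETS factor genes, namely Spib, Spic, Fli1, Erg, Ets1, Ets2, Elf1, Elf4, Etv6 and Elk3. A region was taken as a member when it overlapped the body of one of these genes extended by 20 kb on each side, in the mouse genome build GRCm38 with the GENCODE M21 basic annotation. This gave 264 of the 121336 regions in which accessibility had been counted: 73 at Etv6, 49 at Erg, 37 at Fli1, 27 at Ets1, 25 at Elk3, 24 at Elf1, 19 at Elf4, 5 at Spib, 3 at Ets2 and 2 at Spic. The question was whether these paralogues change when Spi1 loses its enhancer.

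Accessibility had been measured by ATAC-seq with the OmniATAC protocol, in which a transposase cuts open chromatin, in bone marrow cells of wild type (WT) and UREd/d (here URE) mice. Both genotypes were young adult littermates on the C57BL/6 background, and the deletion is carried by every cell of a URE mouse. LSK, a gate of stem and multipotent progenitor cells, were sorted as Lin- Sca-1+ c-Kit+, and GMP, granulocyte-monocyte progenitors, as Lin- Sca-1- c-Kit+ CD16/32+. Each of the 4 groups held 3 libraries, named here WT-LSK and URE-LSK for the first gate, and WT-GMP and URE-GMP for the second, and the study's methods give 3 mice per genotype and cell type.

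ETS factors share a DNA-binding domain that recognises a GGAA core, and PU.1, SpiB and SpiC form a subfamily that prefers purine-rich bases before this core. Several ETS factors can bind the same sites, and the family holds both activators and repressors. FLI1 and ERG are known to sustain haematopoietic stem cells, ETV6 and ELF4 act in stem cell survival and quiescence, and ETS1 and SpiB are best known from lymphoid cells.

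Total counts ranged from 23072701 to 62204826 per library, so that 3 counts corresponded to 0.0520 to 0.126 counts per 1000000 (CPM), and all 264 member regions passed the filter on low counts. Of the 5 regions lying 12 to 17 kb upstream of the Spi1 start codon, where the deleted element lies, 3 had at most 0.143 CPM in every URE library and at least 3.94 CPM in every WT library, as the labels state. The gates were told apart by the sums of their markers: regions at stem cell genes (5 of 6 listed, none at Ly6a) summed to 337 to 347 CPM in WT-LSK against 266 to 302 CPM in WT-GMP. Of these genes, Hlf, Mecom and Meis1 were higher in WT-LSK. Hoxa9 (42.5 ± 2.91 CPM in WT-LSK, 43.6 ± 6.14 CPM in WT-GMP) and Kit (69.7 ± 1.15 and 69.6 ± 5.25 CPM) did not separate the gates. Regions at granule and other GMP genes (5 of 6 listed, none at Fcgr3) summed to 33.9 to 38.6 CPM in WT-LSK against 202 to 258 CPM in WT-GMP. In URE the first list was at 359 to 407 CPM in LSK and, overlapping WT, at 276 to 291 CPM in GMP. The second list reached 323 to 336 CPM in URE-GMP, where Mpo, Elane and Ctsg lay above every WT library but Prtn3 and Ms4a3 overlapped. The URE-LSK libraries had 27.7, 28.4 and 51.4 CPM on this second list. Replicate 3 stood highest, with Mpo at 21.9 CPM (9.92 and 9.91 in replicates 1 and 2) and Ctsg at 19.8 CPM (9.68 and 9.10). The cause was not tested. Regions at the start sites of late neutrophil genes (5 of 5 listed had a region) summed to 20.5 to 39.0 CPM in the WT-GMP libraries and 70.9 to 85.5 CPM in the URE-GMP libraries. In LSK the same list was at 10.1 to 12.9 CPM in WT and 7.11 to 7.75 CPM in URE, but its genes differed in direction. S100a8 and Ltf were lower in URE-LSK, with Ltf at 7.72 ± 0.745 CPM in WT and 3.92 ± 0.726 CPM in URE. S100a9, Camp and Ngp were higher, with Camp at 0.504 ± 0.0645 CPM in WT and 1.42 ± 0.541 CPM in URE. None of these genes had overlapping libraries in LSK. Monocyte and macrophage genes (6 of 6 listed) summed to 61.0 to 78.4 CPM in WT-GMP against 37.0 to 46.7 CPM in URE-GMP, and to 24.7 to 30.7 CPM in WT-LSK against 6.78 to 9.87 CPM in URE-LSK. The cells of both gates were pooled in bulk, so fewer cells of a type and less accessible chromatin per cell cannot be told apart, and the part of cell composition in the results below was not tested.

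The sequences of 8 of the regions described below are printed first, each as the 300 bp around the centre of the region on the forward strand of GRCm38. Capitals mark matches, on either strand, to the PU.1 motif GAGGAAGT or the RUNX motif AACCACA. The Spic promoter and the 2 Ets1 introns are shown because they hold the deepest losses in LSK and the largest gain in CPM in GMP, although none of the searched motifs lies in them. The other 5 windows are shown because they hold a strong loss or gain together with at least 1 match. Chosen in this way, they do not show how often changed regions hold a motif. Some regions with strong changes but no match, such as the Etv6 intron at 29.52 kb, are not printed.
Spic promoter, chr10:88682961-88683260: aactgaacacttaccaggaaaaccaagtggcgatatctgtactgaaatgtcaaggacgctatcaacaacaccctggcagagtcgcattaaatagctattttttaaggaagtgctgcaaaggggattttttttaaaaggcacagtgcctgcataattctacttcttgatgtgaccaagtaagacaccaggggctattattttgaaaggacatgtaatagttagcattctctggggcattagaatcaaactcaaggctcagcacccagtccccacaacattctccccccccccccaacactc
Fli1 intron, chr9:32508643-32508942: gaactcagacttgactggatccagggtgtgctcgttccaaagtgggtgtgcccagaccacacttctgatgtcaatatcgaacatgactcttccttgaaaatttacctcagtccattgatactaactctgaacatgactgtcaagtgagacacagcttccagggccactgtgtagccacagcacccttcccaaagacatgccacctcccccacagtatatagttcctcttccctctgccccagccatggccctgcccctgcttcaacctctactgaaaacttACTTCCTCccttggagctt
Erg upstream, chr16:95600712-95601011: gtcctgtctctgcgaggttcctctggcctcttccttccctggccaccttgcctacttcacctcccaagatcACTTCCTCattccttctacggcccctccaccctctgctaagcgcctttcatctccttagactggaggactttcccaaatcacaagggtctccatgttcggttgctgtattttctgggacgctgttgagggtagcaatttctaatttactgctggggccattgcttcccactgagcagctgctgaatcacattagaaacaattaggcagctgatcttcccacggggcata
Ets1 intron lost in URE, chr9:32685919-32686218: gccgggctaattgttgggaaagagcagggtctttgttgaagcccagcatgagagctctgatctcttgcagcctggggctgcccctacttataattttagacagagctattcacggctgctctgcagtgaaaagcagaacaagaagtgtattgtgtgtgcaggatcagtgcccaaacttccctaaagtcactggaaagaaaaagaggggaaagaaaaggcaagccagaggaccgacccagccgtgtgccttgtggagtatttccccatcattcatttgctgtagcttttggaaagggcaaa
Ets1 intron gained in URE-GMP, chr9:32706040-32706339: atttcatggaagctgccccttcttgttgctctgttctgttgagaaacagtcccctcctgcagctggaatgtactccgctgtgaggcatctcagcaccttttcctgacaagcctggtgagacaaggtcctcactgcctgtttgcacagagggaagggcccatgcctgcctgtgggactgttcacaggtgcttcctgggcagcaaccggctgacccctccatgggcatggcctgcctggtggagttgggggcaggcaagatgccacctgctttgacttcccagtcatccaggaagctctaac
Elf4 downstream, chrX:48405101-48405400: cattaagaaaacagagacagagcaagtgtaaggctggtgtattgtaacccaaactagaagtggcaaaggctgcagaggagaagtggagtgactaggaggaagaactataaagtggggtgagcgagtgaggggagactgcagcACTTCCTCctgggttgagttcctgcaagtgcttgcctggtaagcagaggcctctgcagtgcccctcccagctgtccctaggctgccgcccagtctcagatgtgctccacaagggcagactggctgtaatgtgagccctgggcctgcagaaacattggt
Etv6 intron, chr6:134121858-134122157: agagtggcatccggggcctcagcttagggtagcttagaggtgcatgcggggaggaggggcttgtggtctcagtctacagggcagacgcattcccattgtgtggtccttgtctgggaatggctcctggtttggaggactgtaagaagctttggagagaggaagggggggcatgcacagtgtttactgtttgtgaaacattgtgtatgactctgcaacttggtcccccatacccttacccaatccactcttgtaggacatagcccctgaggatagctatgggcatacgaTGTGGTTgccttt
Elk3 intron, chr10:93261221-93261520: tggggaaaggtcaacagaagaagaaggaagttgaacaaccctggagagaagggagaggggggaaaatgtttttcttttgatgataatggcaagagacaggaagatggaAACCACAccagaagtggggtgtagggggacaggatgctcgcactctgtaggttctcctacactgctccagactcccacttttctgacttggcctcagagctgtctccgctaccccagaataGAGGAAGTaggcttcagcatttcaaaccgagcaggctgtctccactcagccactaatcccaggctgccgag

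Across the 10 genes, many distal regions but few promoters differed between URE and WT, as over all regions. In LSK, 55 of the 264 member regions (20.8%) were lower and 18 (6.82%) were higher in URE by edgeR's quasi-likelihood test, at an adjusted p under 0.05 and an absolute log2 fold change over 1. Over all 121336 regions, 23.9% were lower and 13.6% were higher in LSK. In GMP, 52 member regions (19.7%) were lower and 43 (16.3%) were higher, beside 24.1% lower and 15.6% higher over all regions. The share of members higher in LSK thus lay below the share of all regions, and the other shares lay within 5 percentage points of it. Most members lay away from start sites, with 13 at a promoter of their own gene and 11 at that of another gene. Of all regions within 500 bp of no start site, 27.0% were lower and 15.4% higher in LSK, and 27.0% and 17.7% in GMP. Each member share lay below its counterpart among these regions. The median log2 fold change of the members was 0.06 in LSK and 0.05 in GMP, and that of all regions was 0.14 and 0.06.

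The split into higher and lower members moved with the scaling. With loess offsets, which scale the libraries separately along the range of abundance, 43 members were lower and 41 higher in LSK, and 39 were lower and 55 higher in GMP. With GC content offsets there were 48 lower and 30 higher in LSK and 46 of each in GMP. The split of all regions moved as well: with the main scaling 63.8% of all calls in LSK and 60.6% of those in GMP were lower, with loess offsets 46.1% and 43.8%, and with GC content offsets 54.5% and 52.9%. Among the member calls these shares were 75.3% and 54.7% with the main scaling, 51.2% and 41.5% with loess offsets, and 61.5% in LSK with GC content offsets.

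**Figure D1:**
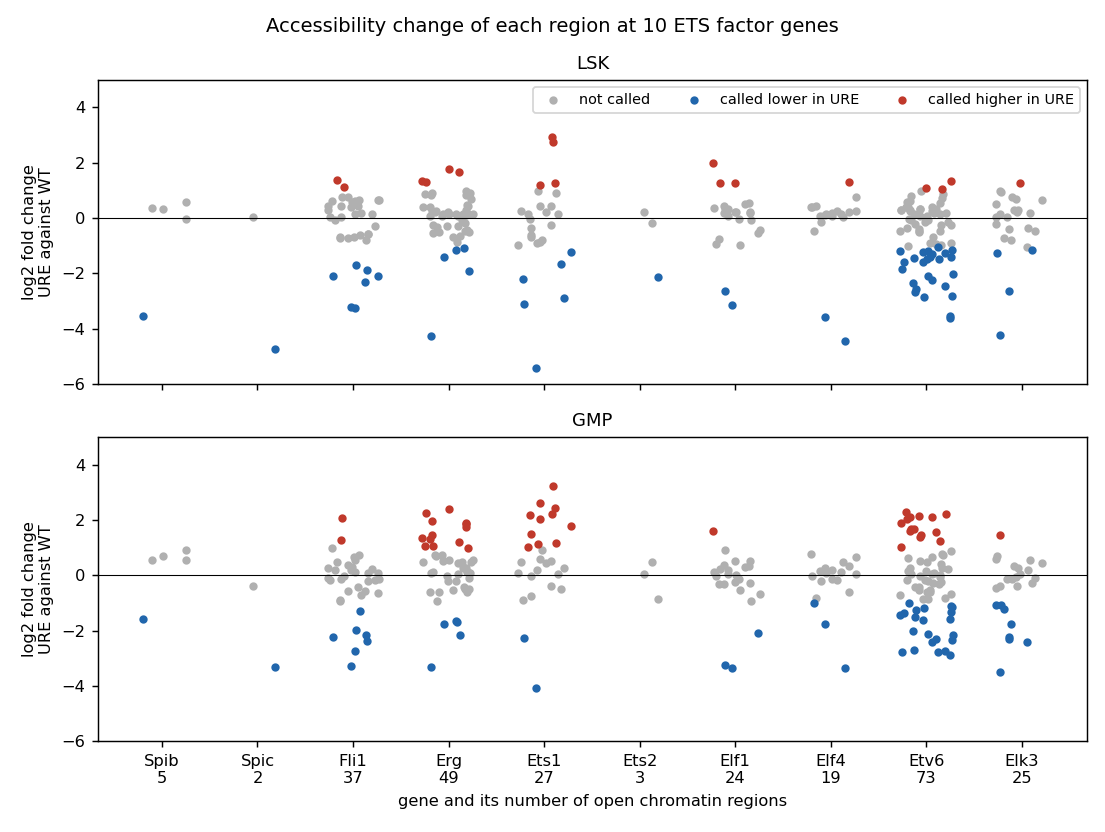
Each point is 1 of the 264 open chromatin regions, placed by gene (the number of regions is under each name) and by its log2 fold change in URE against WT, in LSK (top) and GMP (bottom). Blue and red points were called lower (55 in LSK, 52 in GMP) and higher (18 and 43), and the higher calls in GMP lie mainly at Etv6 (15), Erg (13) and Ets1 (11).

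Most of the losses were shared between the cell types, whose libraries are separate. Of the member regions, 37 were lower in both, which is 67.3% of the LSK losses and 71.2% of the GMP losses. For all regions these shares were 78.4% and 77.9%. Regions higher in both numbered 9, of 18 gains in LSK and 43 in GMP (20.9% of the latter), where all regions gave 62.1% of the LSK gains and 54.0% of the GMP gains. A single region, in an Ets1 intron 3.43 kb downstream of a start site, was lower in LSK and higher in GMP. Of all 121336 regions, 194 were called in opposite directions in LSK and GMP, either way round. The Ets1 region was chosen after its values were seen, and its level in LSK was 0.674 ± 0.0626 CPM (SD, n = 3) in WT and 0.290 ± 0.112 CPM in URE. In GMP it was 1.13 ± 0.560 CPM in WT and 3.79 ± 0.445 CPM in URE.

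The genotype effect itself differed between the cell types at 40 member regions, by the interaction of genotype and cell type with the same thresholds. At 35 of these (13.3%) the effect was more positive in GMP and at 5 (1.89%) it was more negative, beside 8.96% and 5.03% of all regions. Etv6 held 16 of the 35 (21.9% of its regions), Ets1 8 (29.6%), and Fli1 and Erg 4 each (10.8% and 8.16%, the latter below the share of all regions). Without URE-LSK replicate 1, 26 interaction calls were left among the members.

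**Figure D2:**
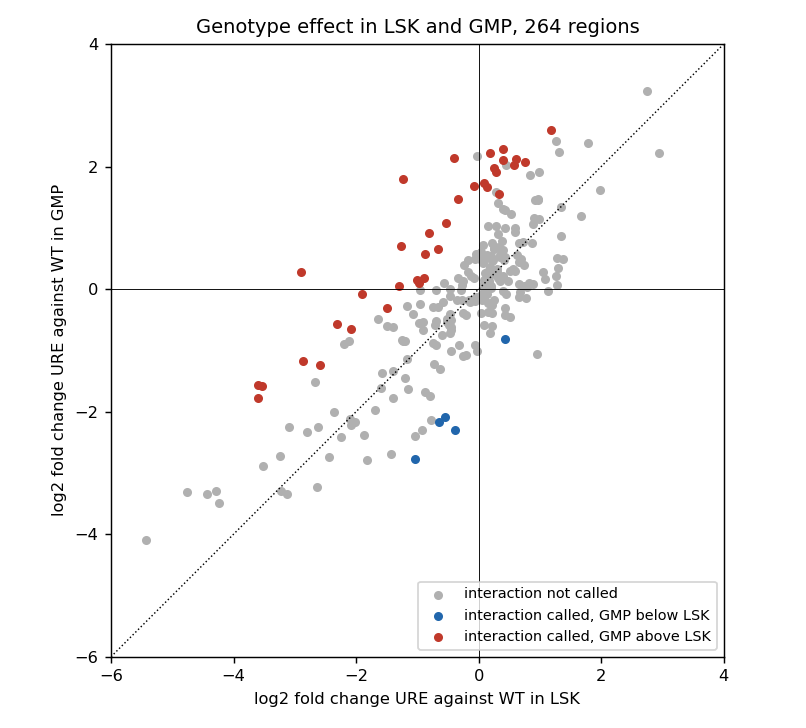
Log2 fold change of each of the 264 regions in URE against WT, in LSK (horizontal) and GMP (vertical), with the dotted line marking equal effects. The 35 red points, where the effect in GMP was called above that in LSK, lie over the line, and the 5 blue points lie under it.

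At the genes' own start sites, 13 member regions lay within 500 bp of a start site, and only the Spic promoter was called lower, in both cell types. A secondary Ets1 start site was called higher in GMP, with 1.58 CPM in WT and 3.12 CPM in URE (log2 fold change 1.02). Spib had no region at its start site. Over all promoter regions, 7.68% were lower and 3.83% higher in LSK, and 8.25% were lower and 4.79% higher in GMP. The main promoter regions of the 8 genes other than Spic and Spib had log2 fold changes of -0.27 to 0.32 in LSK and -0.18 to 0.46 in GMP, none past the fold threshold. Among these, the Ets1 promoter went from 44.1 ± 3.32 to 60.5 ± 1.73 CPM in GMP (adjusted p = 9.95e-05) and the Elf1 promoter, which is shared with Wbp4, from 83.6 ± 1.25 to 104 ± 2.24 CPM in LSK (adjusted p = 0.00133). With loess or GC content offsets the Elf1 promoter was not past an adjusted p of 0.05 in either cell type.

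To follow each gene as a whole, the counts of all regions at a gene were summed, and all 18435 protein-coding loci with a region were tested in the same way, at an adjusted p under 0.05 with no fold threshold. With the main scaling the median log2 fold change of all loci was 0.17 in LSK and 0.15 in GMP, the common shift of all loci under that scaling. This median moved with the scaling. It was 0.05 in LSK and 0.03 in GMP with library size only, 0.02 and 0.01 with loess offsets, and 0.22 and 0.21 with DESeq2. With the main scaling, 47.9% of loci were higher and 13.4% lower in LSK. Of the 10 members, Elf1 and Elf4 were higher there and Spic, Ets1, Etv6 and Elk3 lower. In GMP, 45.6% of loci were higher and 17.0% lower, and Spib, Erg and Ets1 were higher and Spic and Elk3 lower. The difference between the cell types was past the threshold at Spib, Erg and Ets1, in each case more positive in GMP, beside 8.83% of all loci more positive and 9.10% more negative.

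**Figure D3:**
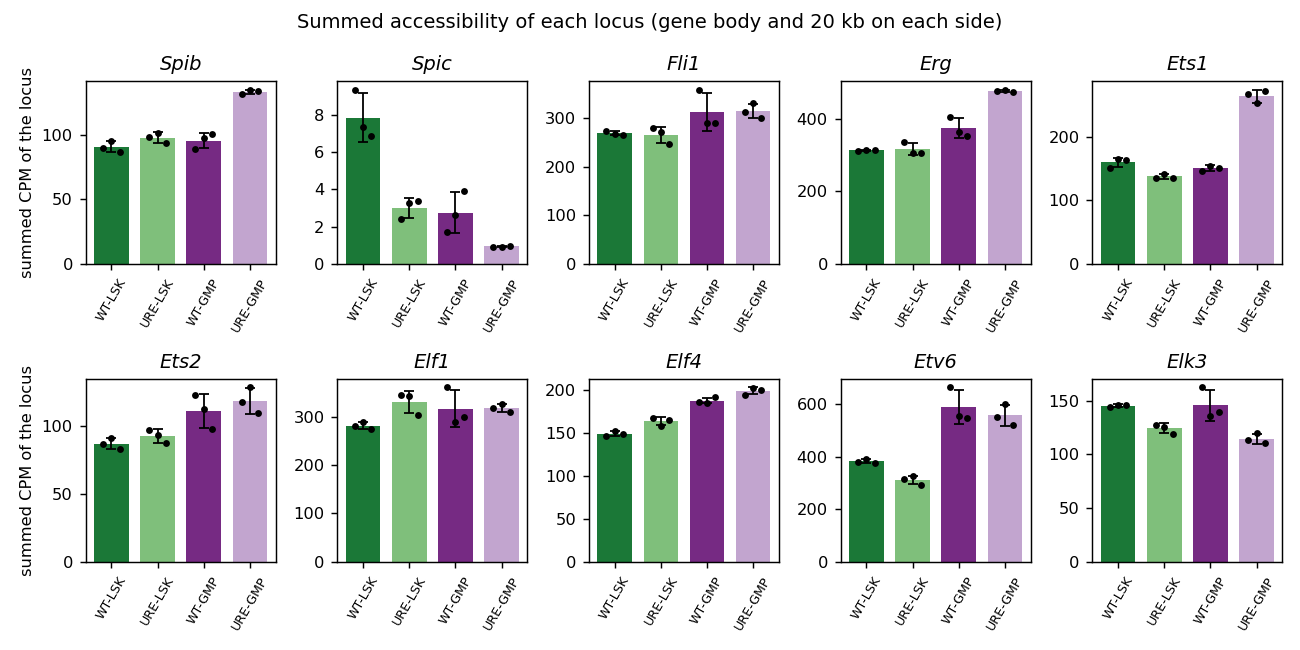
Summed CPM of each locus (gene body and 20 kb on each side) in the 4 groups, with bars for the mean of 3 libraries, error bars for the SD and points for libraries. Ets1 reached 252 to 272 CPM in URE-GMP against 146 to 155 CPM in WT-GMP, and Spic was lower in URE in both cell types.

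Spic and Spib are the closest relatives of Spi1. Spic (chr10:88674772-88685015, reverse strand) encodes a factor known for the red pulp macrophages of the spleen. Its promoter region (chr10:88682976-88683247) held 6.11, 4.45 and 4.73 CPM in the WT-LSK libraries but 0.119, 0.307 and 0.150 CPM in the URE-LSK libraries. In GMP it held 1.21, 1.53 and 2.58 CPM in WT and 0.151, 0.191 and 0.194 CPM in URE. Every URE library was thus below every WT library, and none of them exceeded 0.307 CPM. The log2 fold change was -4.75 ± 0.37 (SE) in LSK (adjusted p = 4.02e-08). In GMP it was -3.31 ± 0.37 (adjusted p = 2.06e-06), and the 2 effects did not differ past the threshold (interaction adjusted p = 0.0923). The other Spic region, 15.09 kb downstream of the 5′ end of the gene, was at 2.75 CPM in WT and 2.81 CPM in URE for LSK, and at 0.962 and 0.760 CPM for GMP, with overlapping libraries. The summed locus fell by 1.39 on the log2 scale in LSK and by 1.57 in GMP. With the flank widened to 50 kb, which takes in the regions of neighbouring genes, the GMP value was -0.18 and was no longer past the threshold.

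Spib (chr7:44525993-44532071, reverse strand) encodes a factor of B cells and plasmacytoid dendritic cells. The only called region of its 5 lay upstream, at -2.36 kb from the start site, in a coding exon of the neighbouring gene Pold1, which encodes a DNA polymerase subunit (chr7:44534214-44534645). It held 8.19, 10.1 and 7.30 CPM in the WT-LSK libraries but 0.4997, 0.782 and 0.897 CPM in the URE-LSK libraries. In GMP it held 7.11, 9.17 and 9.98 CPM in WT and 2.65, 4.39 and 1.72 CPM in URE. The groups did not overlap in either cell type, and the loss was smaller in GMP (log2 fold change -1.58 ± 0.28) than in LSK (-3.54 ± 0.32, interaction adjusted p = 0.00488). The single region in the Spib gene body was at 22.5 CPM in WT-GMP against 33.4 CPM in URE-GMP, short of the fold threshold. The summed locus rose in GMP, from 95.7 ± 5.95 to 134 ± 1.60 CPM (log2 fold change 0.48 ± 0.06, adjusted p = 4.03e-06). The strongest region of this locus, the Pold1 promoter, contributed 56.1 CPM in WT-GMP against 82.4 CPM in URE-GMP, and without promoters of other genes the locus value in GMP was 0.37 (adjusted p = 0.00187). Among B lineage genes, regions at 3 of 6 listed genes were found, summing to 18.2 to 19.3 CPM in WT-GMP against 13.9 to 16.6 CPM in URE-GMP, and none was listed at Cd79a, Pax5 or Vpreb1. Of the plasmacytoid dendritic cell genes 3 of 5 had regions, which summed to 21.5 to 24.4 CPM in WT-GMP against 11.3 to 14.9 CPM in URE-GMP. In LSK the plasmacytoid dendritic cell list was at 26.8 to 33.6 CPM in WT against 20.3 to 21.6 CPM in URE, and its genes differed in direction: Siglech, a receptor of these cells, was at 6.07 ± 1.93 CPM in WT and 0.328 ± 0.102 CPM in URE, whereas Ccr9, a chemokine receptor, was at 4.07 ± 0.861 CPM in WT and 8.03 ± 1.06 CPM in URE. The B lineage list overlapped in LSK, with 18.7 to 19.7 CPM in WT and 17.05 to 19.2 CPM in URE. The part of such cells in the Spib values was not tested.

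Fli1 and Erg encode related activators of stem cell and megakaryocyte genes. At Fli1 (chr9:32422204-32542861, reverse strand), 7 of 37 regions were lower and 2 higher in LSK, and the same numbers held in GMP, with 5 lower in both. The summed locus was at 268 ± 4.18 CPM in WT-LSK against 265 ± 17.0 CPM in URE-LSK, and at 312 ± 39.6 and 314 ± 15.2 CPM in GMP. The groups overlapped in both cell types and the log2 fold changes were -0.02 ± 0.07 and 0.01 ± 0.07. With loess offsets both were past the threshold as lower, with -0.21 in LSK (adjusted p = 0.005556) against -0.18 in GMP (adjusted p = 0.01183).

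Single Fli1 introns were called in both directions. The region 32.8 kb downstream of a start site, which holds a PU.1 motif and lies at the promoter of the antisense transcript Gm27201 (chr9:32508307-32509280), held 17.1, 20.6 and 17.8 CPM in WT-LSK against 3.64, 4.05 and 3.46 CPM in URE-LSK. In GMP it held 34.5, 27.8 and 28.1 CPM in WT and 20.2, 23.6 and 16.9 CPM in URE. Each URE library was below each WT library. The log2 fold change was -2.32 ± 0.15 in LSK but -0.57 ± 0.14 in GMP, short of the fold threshold, and the interaction was called (1.74 ± 0.20, adjusted p = 5.24e-05). A region 66.4 kb downstream of a start site (chr9:32475031-32475353) fell in both cell types, to 0.442 ± 0.192 CPM from 4.12 ± 0.774 CPM in LSK, and to 0.932 ± 0.312 CPM from 6.22 ± 1.06 CPM in GMP. Of the gained regions, the one at 53.98 kb rose from 1.21 ± 0.0976 to 5.10 ± 0.339 CPM in GMP (adjusted p = 1.71e-06), and the one at 45.66 kb, which holds a GATA motif, rose from 0.976 ± 0.215 to 2.49 ± 0.465 CPM in LSK (adjusted p = 0.00149).

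At Erg (chr16:95359169-95586593, reverse strand), 13 of 49 regions (26.5%) were higher in GMP and 5 lower, while 4 were higher and 5 lower in LSK. The summed locus was at 406, 363 and 353 CPM in the WT-GMP libraries and 477, 480 and 473 CPM in the URE-GMP libraries, which did not overlap (log2 fold change 0.35 ± 0.05, adjusted p = 4.73e-05). In LSK the libraries overlapped, with means of 313 ± 1.21 and 317 ± 16.7 CPM (log2 fold change 0.02). That LSK value turned to -0.10 with library size only and to -0.18 with loess offsets, both past the threshold.

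The deepest Erg loss lay upstream of the gene, at -14.27 kb in intergenic sequence, and holds a PU.1 motif (chr16:95600599-95601125). It held 5.80, 5.30 and 6.56 CPM in WT-LSK against 0.405, 0.391 and 0.128 CPM in URE-LSK. In GMP it went from 4.56, 4.66 and 4.49 CPM to 0.323, 0.607 and 0.436 CPM. No URE library exceeded 0.607 CPM, no WT library was under 4.49 CPM, and the log2 fold changes were -4.28 ± 0.32 and -3.30 ± 0.29. The gained region with the smallest p, in an intron 43.01 kb downstream of a start site (chr16:95415817-95416650), rose in LSK from 3.02 ± 0.510 to 7.60 ± 1.47 CPM, and in GMP from 13.4 ± 2.30 to 34.2 ± 2.93 CPM. The log2 fold changes were 1.34 ± 0.18 and 1.35 ± 0.16 (interaction 0.0058 ± 0.27). The Erg promoter itself was at 46.1 CPM in WT and 57.1 CPM in URE for LSK, and at 32.1 and 38.6 CPM for GMP, with no adjusted p under the threshold. Regions of erythroid and megakaryocyte genes, at 5 of the 6 genes listed, summed to 113 to 134 CPM in WT-LSK against 146 to 155 CPM in URE-LSK, and to 85.5 to 109.6 CPM in WT-GMP against 81.8 to 91.8 CPM in URE-GMP, with none listed at Gata1. Their part in the Fli1 and Erg values was not tested.

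Ets1 (chr9:32636221-32757820, forward strand), which encodes the founding member of the family and is known from T and natural killer cells, was the member whose locus rose most in GMP. Its summed accessibility was 146, 155 and 151 CPM in the WT-GMP libraries and 268, 252 and 272 CPM in the URE-GMP libraries. In LSK it was 151.5, 165 and 163 CPM in WT and 135, 142 and 135 CPM in URE. The URE libraries were thus all above WT in GMP and all below WT in LSK. The log2 fold change was 0.81 ± 0.05 in GMP (adjusted p = 3.78e-09). In LSK it was -0.22 ± 0.05 (adjusted p = 0.00174), and the interaction was 1.03 ± 0.07 (adjusted p = 1.005e-06). Over the alternatives tried, the GMP value stayed between 0.63 and 0.87 and the LSK value between -0.40 and -0.17, all past the threshold. The gene body carried the rise, with 102 CPM in WT-GMP against 197 CPM in URE-GMP over its 23 regions other than promoters.

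Of the 27 Ets1 regions, 11 (40.7%) were higher and 2 lower in GMP, and 4 were higher and 6 lower in LSK. The intron region 9.81 kb downstream of a start site (chr9:32705789-32706592) held 15.4, 20.3 and 19.2 CPM in WT-GMP against 49.2, 44.0 and 60.3 CPM in URE-GMP. In LSK it held 26.8, 28.9 and 27.2 CPM in WT and 19.99, 22.3 and 23.0 CPM in URE. It thus rose in GMP (1.48 ± 0.12, adjusted p = 1.52e-07) with a lower level in URE-LSK (-0.34 ± 0.12, short of the fold threshold), and the difference was past the threshold (1.82 ± 0.17, adjusted p = 1.405e-05). A region at -27.8 kb from a start site, within the long Ets1 isoform (chr9:32668064-32668386), had the largest interaction of the named regions, 3.18 ± 0.33. It fell from 3.78, 4.81 and 4.30 CPM to 0.333, 0.754 and 0.641 CPM in LSK, and in GMP held 8.24, 7.87 and 7.15 CPM in WT and 9.43, 10.9 and 7.85 CPM in URE, which overlap. The deepest Ets1 loss, at -9.95 kb from a start site (chr9:32685919-32686219), held 3.86, 3.39 and 4.34 CPM in WT-LSK against 0.0238, 0.0558 and 0.171 CPM in URE-LSK, of which the first and the second are below the value of 3 counts (log2 fold change -5.42 ± 0.39). In GMP it fell to 0.236 ± 0.0256 CPM from 4.01 ± 0.823 CPM (-4.09 ± 0.33). A region 34.51 kb downstream of a start site rose in GMP from 1.32 ± 0.403 to 7.92 ± 0.926 CPM, and in LSK from 0.376 ± 0.107 to 0.857 ± 0.0446 CPM. Without WT-LSK replicate 3 the LSK value of 0.95 fell short of the fold threshold. Regions of T lineage genes, at 3 of the 6 genes listed, summed to 5.18 to 7.41 CPM in WT-GMP against 8.67 to 11.4 CPM in URE-GMP, with none listed at Cd3e, Cd3g or Cd8a. The genes of this list differed in direction: Cd4 was at 0.951 ± 0.323 CPM in WT-GMP against 0.107 ± 0.0526 CPM in URE-GMP, whereas Lck, a kinase of the T cell receptor pathway, was at 2.74 ± 0.714 CPM against 6.02 ± 1.23 CPM, and the Bcl11b libraries overlapped. In LSK the list overlapped between the genotypes, with means of 17.2 ± 1.97 CPM in WT and 18.6 ± 0.599 CPM in URE. Their part in the Ets1 values was not tested.

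**Figure D4:**
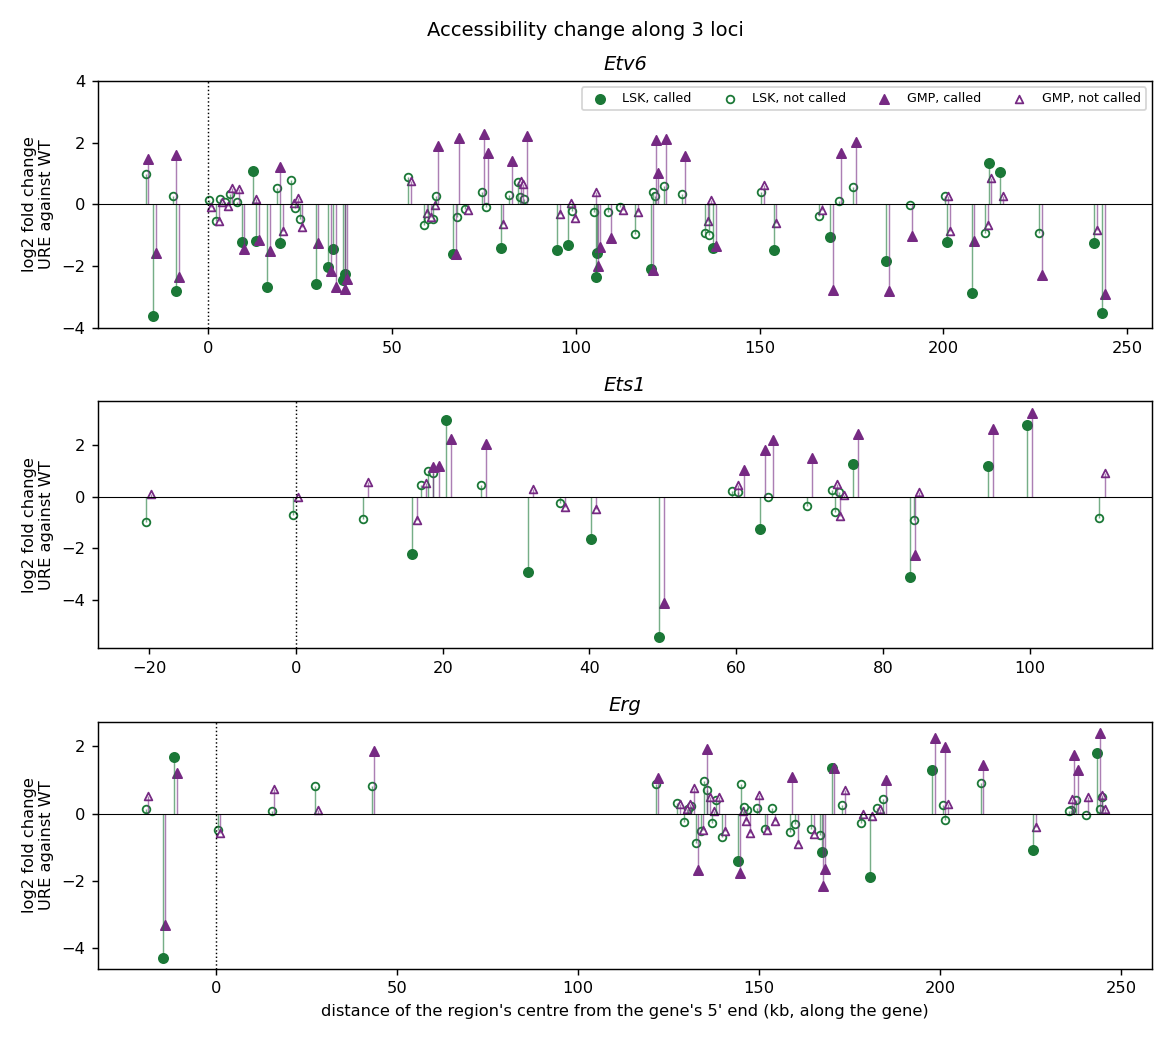
Log2 fold change of each region in URE against WT, in LSK (green circles) and GMP (purple triangles), by distance from the 5′ end of Etv6, Ets1 and Erg in kb, with filled symbols for calls. Etv6 shows 22 losses and 15 gains in GMP interleaved along the gene, while Ets1 shows 11 gains and 2 losses in GMP.

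Ets2 (chr16:95702075-95721051, forward strand), a target of Ras and MAP kinase signalling, had 3 regions, and its summed level was not past the threshold in either cell type (0.09 ± 0.08 in LSK and 0.10 ± 0.08 in GMP). An intron region 6.52 kb downstream of the start site fell from 0.709, 1.43 and 1.41 CPM to 0.143, 0.447 and 0.235 CPM in LSK (adjusted p = 0.0116). In GMP it varied widely between libraries, with 14.1, 13.8 and 5.05 CPM in WT and 5.49, 10.4 and 2.25 CPM in URE, which overlap. Without WT-GMP replicate 3 or without URE-GMP replicate 2 the region was called lower in GMP, with log2 fold changes of -1.20 and -1.495.

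Elf1 and Elf4 encode activators that are broadly active in blood cells. At Elf1 (chr14:79481194-79582494, forward strand) the summed locus was higher in LSK, from 281 ± 7.40 to 330 ± 23.6 CPM (0.23 ± 0.07, adjusted p = 0.0108), and in GMP was at 316 ± 38.6 CPM in WT and 317 ± 7.97 CPM in URE. With the main scaling the median of all loci was 0.17. The LSK value of Elf1 was not past the threshold with library size only (0.11), with loess offsets (0.04) or without WT-LSK replicate 1, WT-LSK replicate 3 or URE-LSK replicate 1. With loess offsets the GMP value turned to -0.18. An intron region 4.55 kb downstream of the start site (chr14:79485606-79485885) fell in both cell types, to 0.246 ± 0.0460 CPM from 2.20 ± 0.237 CPM in LSK, and to 0.241 ± 0.0644 CPM from 2.504 ± 0.764 CPM in GMP. Another intron region at 23.52 kb (chr14:79539100-79539307) rose in LSK from 0.6004 ± 0.110 to 2.40 ± 0.659 CPM, and in GMP from 0.478 ± 0.239 to 1.38 ± 0.308 CPM.

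Elf4 (chrX:48411046-48463132, reverse strand) had 2 regions lower and 1 higher in LSK and 3 lower in GMP, of 19. The region 48.92 kb downstream of a start site, in an intron of the neighbouring gene Bcorl1 and with a PU.1 motif (chrX:48405114-48405388), held 2.57, 4.85 and 3.76 CPM in WT-LSK against 0.143, 0.195 and 0.171 CPM in URE-LSK. In GMP it held 3.47, 3.42 and 2.81 CPM in WT and 0.344, 0.468 and 0.0969 CPM in URE. No URE library exceeded 0.468 CPM and no WT library was under 2.57 CPM (log2 fold changes -4.43 ± 0.41 and -3.35 ± 0.37). The other Elf4 region called lower in both cell types lies in the gene body 9.26 kb downstream of a start site. A gene body region at 14.93 kb rose in LSK from 3.15 ± 0.468 to 7.76 ± 1.74 CPM (adjusted p = 0.000108). The log2 fold change of the summed locus was 0.13 ± 0.04 in LSK, below the median of all loci with the main scaling, and turned to -0.05 with loess offsets. It was not past the threshold with library size only, without any 1 of the WT libraries (0.05 to 0.09) or without URE-LSK replicate 1 (0.12).

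Etv6 (chr6:134035700-134270158, forward strand), which encodes a repressor needed by bone marrow stem cells, is the longest member gene and held the most calls. In LSK 26 of its 73 regions (35.6%) were lower and 3 higher, and in GMP 22 (30.1%) were lower and 15 (20.5%) higher. The losses were largely shared, with 19 regions lower in both cell types, whereas none was higher in both. The summed locus was 381, 393 and 376 CPM in WT-LSK against 314, 326 and 293 CPM in URE-LSK, all below WT (-0.30 ± 0.07, adjusted p = 0.00212). In GMP it was 664, 555 and 547 CPM in WT and 552, 600 and 521 CPM in URE, which overlap (-0.08 ± 0.07, adjusted p = 0.357). The sum in GMP was thus not past the threshold, although with library size only (-0.19) and with loess offsets (-0.26) it was past the threshold. The Etv6 promoter, the strongest region of the locus, was at 107 ± 2.10 CPM in WT and 118 ± 5.70 CPM in URE for LSK, and at 126 ± 23.2 and 119 ± 3.55 CPM for GMP.

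The largest Etv6 loss in LSK, by the difference in CPM, was an intron region 29.52 kb downstream of the start site (chr6:134064896-134065550), which held 26.9, 26.8 and 26.7 CPM in WT-LSK against 3.81, 6.87 and 2.86 CPM in URE-LSK. In GMP it held 18.6, 20.7 and 21.3 CPM in WT and 8.59, 9.87 and 7.05 CPM in URE. The loss was larger in LSK (-2.58 ± 0.23) than in GMP (-1.25 ± 0.22, interaction adjusted p = 0.00841). The region at 86.31 kb (chr6:134121789-134122227), with a RUNX motif, was the gain with the smallest p in GMP, with 2.09, 1.30 and 1.38 CPM in WT and 7.02, 7.17 and 7.71 CPM in URE. In LSK it held 0.735, 0.734 and 1.05 CPM in WT and 0.976, 0.977 and 0.961 CPM in URE, which overlap, and its interaction was 2.04 ± 0.33 (adjusted p = 0.000709). The 15 regions that rose in GMP had log2 fold changes of 1.03 to 2.29, and their mean WT-LSK levels were at most 2.63 CPM. A coding exon region near the 3′ part of the gene, at 212.7 kb, rose in LSK from 1.85 ± 0.244 to 4.76 ± 0.969 CPM, and the region at 37.43 kb, at the promoter of Gm43982, fell in GMP from 4.01 ± 0.839 to 0.737 ± 0.188 CPM.

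Elk3 (chr10:93247414-93311135, reverse strand) encodes a ternary complex factor that represses serum response genes, and its gene overlaps that of Cdk17. As a summed locus it was lower in both cell types. The summed locus was 144, 146 and 146 CPM in WT-LSK against 128, 126 and 119 CPM in URE-LSK. In GMP it was 162, 136 and 139 CPM in WT and 113, 120 and 110 CPM in URE. Every URE library was below every WT library, with log2 fold changes of -0.23 ± 0.06 and -0.35 ± 0.06. Over the gene body alone the values were -0.53 and -0.55, and with a flank of 50 kb the LSK value was -0.14 and not past the threshold. Gene body regions other than promoters summed to 83.2 CPM in WT-LSK against 47.9 CPM in URE-LSK, and to 88.4 against 55.9 CPM in GMP. The upstream flank was higher in URE, at 14.4 against 21.1 CPM in LSK and 20.1 against 25.9 CPM in GMP. The downstream flank was at 17.7 against 23.3 CPM in LSK and 9.97 against 9.33 CPM in GMP.

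The main Elk3 loss was an intron region 23.6 kb downstream of a start site (chr10:93261094-93261649) that also lies in Cdk17 and holds both a PU.1 and a RUNX motif. It held 23.7, 26.7 and 24.9 CPM in WT-LSK against 3.76, 4.94 and 3.50 CPM in URE-LSK. In GMP it was at 20.5 ± 1.84 CPM in WT and 4.31 ± 0.960 CPM in URE. Every URE library was below every WT library. The changes of -2.63 ± 0.17 and -2.24 ± 0.17 did not differ past the threshold (interaction adjusted p = 0.294), and in WT this region was stronger in LSK than the Elk3 promoter (25.1 and 22.0 CPM). The promoter was at 22.7 CPM in URE-LSK, at 18.4 CPM in WT-GMP and at 16.6 CPM in URE-GMP, with libraries that overlapped between the genotypes. Elk3 gains were single regions at 18.97 kb in GMP (1.34 ± 0.503 to 3.63 ± 1.03 CPM) and at -9.24 kb in LSK (1.04 ± 0.181 to 2.52 ± 0.760 CPM).

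**Figure D5:**
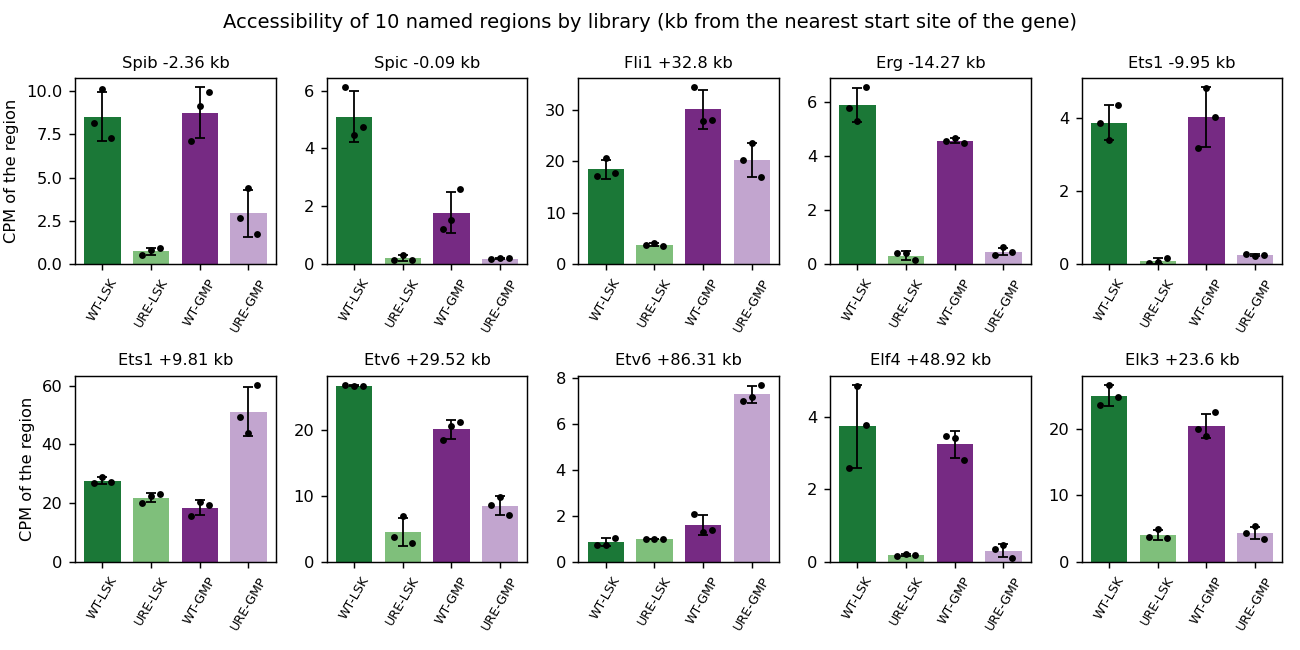
CPM of 10 named regions in the 4 groups, with bars for the mean of 3 libraries, error bars for the SD and points for libraries, and the distance from the nearest start site of the gene in each title. The Spic, Erg, Elf4 and Ets1 (-9.95 kb) regions were near 0 in all 6 URE libraries, while Ets1 (9.81 kb) and Etv6 (86.31 kb) were highest in URE-GMP.

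The letters of 5 motifs were searched on both strands in the central 300 bp of every region. The PU.1 motif lay in 18 of the 264 member regions (6.82%), beside 8.70% of all regions. It lay in 11 of the 55 LSK losses and 10 of the 52 GMP losses (19.2%), where it lay in 21.2% and 19.0% of all regions lost in LSK and in GMP. None of the 18 LSK gains and 1 of the 43 GMP gains (2.33%) held it, beside 1.98% and 2.43% of all gained regions. The CEBP motif TTGCNNAA lay in 16 of the 43 GMP gains (37.2%, all GMP gains 28.6%), 6 of them at Etv6 and 4 each at Erg and Ets1. The GATA motif AGATAA lay in 7 of the 18 LSK gains (38.9%, all LSK gains 16.7%). The RUNX motif lay in 10.6% of members and 14.4% of all regions, and the ETS motif CCGGAAGT in 2 members (0.758%, all regions 1.22%).

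In WT cells alone, member regions opened more often than they closed from LSK to GMP. Of the 264, 76 (28.8%) were higher and 25 (9.47%) lower in WT-GMP than in WT-LSK, beside 21% and 16.8% of all regions. Etv6 accounted for 32 of the higher regions (43.8% of its regions), Erg for 16 (32.7%) and Ets1 for 10 (37.0%). Fli1 accounted for 8 of the lower ones (21.6%). As summed loci, Fli1 (0.22), Erg (0.26), Ets2 (0.35), Elf4 (0.33) and Etv6 (0.62) were past the threshold as higher and Spic (-1.49) as lower, beside 33.4% and 21.8% of all loci. Spib, Ets1, Elf1 and Elk3 were not past it, with values of 0.08, -0.08, 0.17 and 0.0009. This comparison shares its WT libraries with the genotype comparisons, so the values stand side by side only.

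Ranked by their summed level, Ets1, Erg and Spib were highest in URE-GMP, with the other 3 groups at 138 to 160, 313 to 374 and 90.9 to 97.9 CPM. Fli1, Erg, Ets2, Elf4 and Etv6 had higher means in both GMP groups than in both LSK groups, and Elk3 was lowest in URE-GMP (114 ± 4.84 CPM), next to URE-LSK (124 ± 4.68 CPM). For Spic the highest group was WT-LSK (7.84 ± 1.33 CPM), followed by URE-LSK (3.0 ± 0.539 CPM) with WT-GMP (2.74 ± 1.10 CPM) overlapping it, and URE-GMP was lowest (0.938 ± 0.0271 CPM). Among genes on other chromosomes, the summed loci whose 12 libraries followed that of Spic most closely were Tcl1b3 (Pearson r = 0.989), Rgs6 (0.981) and Gm12695 (0.980). For Ets1 they were Mef2b (0.975), Igf2bp2 (0.974) and Tspan15 (0.972). These libraries fall into 4 groups, so such a correlation describes a shared order of the groups.

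The remaining 16 ETS family genes were counted as a fixed list. In LSK, 6 of the 16 summed loci were higher and 2 lower, the lower ones being Etv1 (-0.47 ± 0.13) and Spi1 itself. In GMP, 5 were higher and 4 were lower, namely Ehf (-1.37 ± 0.14), Etv1 (-0.64 ± 0.13), Fev (-0.50 ± 0.12) and Spi1. The Spi1 sum takes in the deleted DNA, so its call as lower (-0.57 ± 0.05 in LSK and -0.29 ± 0.05 in GMP) is no measure of the rest of the locus. Without the 3 deleted regions the Spi1 locus was at 171 ± 2.33 CPM in WT-LSK against 148 ± 4.12 CPM in URE-LSK, and was higher in URE-GMP (218 ± 3.45 CPM) than in WT-GMP (201 ± 5.72 CPM), with no overlap in either cell type and no test made. The higher loci, Elf2, Elk4, Erf, Etv2 and Gabpa in both cell types and Etv4 in LSK, had values of 0.18 to 0.47. Of the 10 promoter regions at these genes, the Spi1 promoter in LSK was called lower (-2.65), and no other passed the fold threshold in either cell type.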

How the data were processed

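The authors deposited a table of read counts over open chromatin regions (adapter trimming with cutadapt, alignment to GRCm38 with bowtie2, peak calling with Genrich, and bedtools and featureCounts, per the submitters' processing notes). The deposited counts were not normalised, and whether whole fragments or their ends were counted is not given in the sources used here. Starts were read as 0-based and are printed 1-based. All 12 count columns were used (count columns not used: 0). CPM were scaled with TMM factors.

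Differences were tested with edgeR 4.0.16 (limma 3.58.1, R 4.3.3) by the quasi-likelihood test, fitted over all 12 libraries with 1 term per group, on the 121336 regions or on the summed counts of 18435 protein-coding loci. P-values were adjusted by the Benjamini-Hochberg method over the whole table. A region was called at an adjusted p under 0.05 and an absolute log2 fold change over 1, the thresholds of the study, and a locus at an adjusted p under 0.05. On simulated counts for 121336 regions, comparing URE with WT in GMP, the calls recovered 98% of 100 regions changed by 1.5 on the log2 scale and 100% of 100 changed by 2.5, with 7 false calls. The changed regions were drawn from those with higher counts, equally up and down, with the same set spread for every region. In the data far more regions were called, unequally and also at low counts, so these rates do not carry over to the calls reported. Tables and plots used Python 3.11.15, pandas 2.3.3 and matplotlib 3.10.9, and DESeq2 1.42.0 was an alternative.

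Named were the most abundant region within 500 bp of a start site of each gene, the called region with the smallest p per gene, direction and genotype contrast, the 3 smallest interaction p-values, and all loci. Other single regions were named after their values were seen. The genes and lists were chosen with earlier results of these data known. Marker regions lay within 1 kb of a start site.

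Labels do not tie libraries to animals, so p-values measure the spread between these samples. Same-numbered WT-LSK and WT-GMP libraries deviated together in each of the 3 pairs (r = 0.150 to 0.194), although no label gives them a common mouse, and a replicate block left the WT comparison at 76 higher and 25 lower regions. Alternatives covered scaling, filters, thresholds, flanks, DESeq2, the replicate block and leaving out each library.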

Additional observations from a re-analysis of the deposited data

Results flagged for a closer look

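At 3 member loci and 8 of the 32 named regions the genotype effect in GMP differed from that in LSK. The test was the interaction test of edgeR, with adjustment over all loci or regions. The named regions were chosen as main promoters, by the smallest p of a genotype contrast, or as the 3 with the smallest interaction p. The 8 of 32 is thus no estimate of the share among regions. Among all 264 member regions 40 had an interaction call, 35 more positive and 5 more negative in GMP. Of all regions 8.96% were more positive and 5.03% more negative in GMP, and of all loci 8.83% and 9.10%. Each value is the log2 fold change of URE against WT in GMP minus that in LSK, so a positive value stands for a higher effect in GMP. For summed loci it was 0.37 at Spib (adjusted p = 0.005008), 0.33 at Erg (adjusted p = 0.006225) and 1.03 at Ets1 (adjusted p = 1.005e-06). The Spib value was 0.16 and not past the threshold with a flank of 50 kb.

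In the Ets1 gene, which is known from lymphoid cells, the value was 3.18 at -27.8 kb from a start site, 1.82 at 9.81 kb and 1.41 at 34.51 kb. Only the region at -27.8 kb had lost its accessibility in LSK past the threshold, and the regions at 9.81 and 34.51 kb had gained it in GMP, the latter in LSK too. In Fli1 the value was 1.74 at 32.8 kb, a loss in LSK, and 1.32 at 53.98 kb, a gain in GMP. In Etv6 it was 1.34 at 29.52 kb, a loss that was larger in LSK, and 2.04 at 86.31 kb, a gain in GMP. Next to Spib, at -2.36 kb, it was 1.97, again with the larger loss in LSK. With 3 libraries per group, no single library was tested for standing apart from its group.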

How the results depend on the processing

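The number of member regions called higher in LSK (18) moved to 41 with loess offsets, 30 with GC content offsets, 31 with the replicate block and GC content offsets, 8 with a mean CPM of at least 2, 50 with no fold threshold and 5 with glmTreat, a test of folds beyond the threshold. With a mean CPM of at least 2, 26 regions were lower (52) and 21 higher (43) in GMP, and 43 were higher (76) and 8 lower (25) in WT-GMP than in WT-LSK. With no fold threshold, 86 were lower in LSK (55), 79 lower and 78 higher in GMP, and 117 higher and 52 lower in WT-GMP than in WT-LSK. With glmTreat, 27 were higher in GMP, 6 had an interaction call (40) and 7 were lower in WT-GMP than in WT-LSK, and with a flank of 50 kb 39 were. Leaving out 1 library at a time gave 26 (without URE-LSK replicate 1) to 44 interaction calls. With the replicate block there were 57 lower and 18 higher regions in LSK, 52 lower and 44 higher in GMP, and 45 interaction calls, and 6 and 5 loci as before. Same-numbered WT and URE libraries had r of -0.058 to 0.083 in LSK, which shows no pairing. In GMP r was 0.086 to 0.312, positive in each pair as between WT-LSK and WT-GMP, although no label pairs these libraries. Among loci, 8 were past the threshold in GMP with loess offsets (5). Of 97 named values, 24 changed sign under at least 1 alternative, and 4 of these were past the threshold in the fit reported or with the opposite sign, namely Fli1 in GMP (-0.18, loess), Erg in LSK (-0.10, library size only, and -0.18, loess), Elf1 in GMP (-0.18, loess) and Elf4 in LSK (-0.049, loess); the cause was not tested. The others were not past it on either side, such as Spib in LSK (0.11, and -0.21 without promoters of other genes). Elf4 in LSK was also not past the threshold with library size only or without any WT-LSK or WT-GMP library or URE-LSK replicate 1. Of the 97, 77 had the same call under every alternative run. A count of 3 corresponds to 0.0520 to 0.126 CPM, which limits folds of regions near 0 in URE.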
